A study of Mus musculus with 59 samples.

Results

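The values of 10 genes of lipoprotein assembly, modification and uptake were described across liver arrays of 4 mouse genotypes: Apob, Mttp, Apobec1, Apoa1, Apoa4, Apoa5, Apoc3, Apoe, Vldlr and Lrp1. They are 10 of 18193 genes with a probe set that names 1 gene symbol, and they carry 22 of 34945 such probe sets, each of which is reported. The genes were chosen by name with earlier results for Apob and Vldlr in these arrays in view, and the main probe set of each was selected on its mean signal over the arrays, the highest of the gene. Levels are therefore a description, and the tests of Apob and Vldlr are no independent support. Vldlr has 6 probe sets, Apoa1 has 4, Apob, Mttp, Apoa4 and Lrp1 have 2 each, and the others have 1.

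The liver packs triglyceride and cholesterol into particles built around a single molecule of apolipoprotein B, which stays with the particle from assembly to clearance. The microsomal triglyceride transfer protein (Mttp) loads lipid onto the growing chain in the endoplasmic reticulum, and in mouse liver Apobec1 edits a codon of the Apob transcript into a stop, which gives a shorter protein. Smaller apolipoproteins exchange between particles and govern their lipolysis, and receptors of the low density lipoprotein receptor family, among them Vldlr and Lrp1, bind particles or remnants at the cell surface.

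All arrays came from whole liver of mice at 4 weeks of age on one mixed strain background (FVB/NT, 129S1/Svlmj, C57BL/6NT). The genotypes were wild type (wt, 12 arrays), a knock-out of E2f3a (3aKO, 10 arrays), a knock-in of E2f1 (1KI, 10 arrays) and a knock-in of E2f3b (3bKI, 5 arrays). The E2f genes encode transcription factors best known for control of the cell cycle, and the comparisons ask how each altered allele changes liver expression. The labels give neither the site nor the zygosity of the knock-ins. Whether arrays of one genotype came from different mice is not stated, so p-values reflect only how far these arrays scatter, and part of that scatter may be technical. The 1KI arrays were normalized together with wt and 3aKO (normalization 1), and the 3bKI arrays with the same wt and 3aKO arrays (normalization 2), so 1KI and 3bKI were never set against each other directly. Both knock-ins were compared with the same wt and 3aKO arrays, which are shared between the comparisons.

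Several array measures differed between the genotypes and are given here once. The spiked hybridization controls averaged 10.4 ± 0.50 (log2, SD) over the 12 wt arrays and 10.2 ± 0.12 over the 10 of 3aKO. They were brighter over the 10 arrays of 1KI, at 11.3 ± 0.24, and the 5 of 3bKI, at 11.6 ± 0.29. Wt replicates 1 and 2 were the only wt arrays at the level of the knock-ins, and no 3aKO array was at it. Fits with this level as a block therefore compare a knock-in with 3aKO only by way of wt, through these 2 wt arrays. RNA integrity was read from the 3' minus 5' signal of the Actb and Gapdh controls. It was 0.314 ± 0.038 for the 3bKI arrays beside 0.559 ± 0.050 for wt, and 1KI replicate 6 stood apart at 1.75. The 3bKI arrays, from 0.275 to 0.36, did not overlap with wt, from 0.475 to 0.65, or 3aKO, from 0.545 to 0.755. Fits with RNA integrity as a covariate therefore separate it poorly from the 3bKI genotype, and a 3bKI call lost in them decides nothing about its part. Poly-A controls, added before labelling, were at 13.8 ± 0.04 in 3bKI and 9.04 ± 0.39 in wt. A sex index was taken per array as the Xist signal minus the mean of Y-linked genes. The Y-linked genes read above Xist on 7 of the 12 wt arrays, 5 of the 10 of 3aKO, 4 of the 10 of 1KI and 2 of the 5 of 3bKI. Each group thus held arrays of both kinds. The part of these measures in the results was not tested beyond the fits given beside each result and in the section on processing. The 10 hepatocyte markers measured of 12 listed had array means between 14.28 and 14.46 in every group, so the tissue label held. In bulk tissue, fewer cells of a type and less RNA per cell cannot be told apart. The 2 E2f3 probe sets did not pass the test in 3aKO (log2 changes of -0.17 ± 0.06 SE and -0.25 ± 0.07, limma adjusted p = 0.28 and 0.11), and the files do not say which E2f3 transcripts they measure, so they do not check the label. The brighter of them read from 7.50 to 7.97 in 3aKO and from 7.70 to 8.29 in wt. The 3 E2f1 probe sets differed from wt in 1KI by -0.10 to -0.25 and did not pass (limma, lowest adjusted p = 0.085), so E2f1 signal was not higher in the arrays labelled as its knock-in.

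The upstream sequences of the genes with the most marked changes are shown because the altered alleles encode DNA-binding factors. They are RefSeq sequence on GRCm38.p6, 5' to 3' along the gene's strand, from the window of 250 bases before the start in the promoter table. For Apob and Vldlr the stretch stops short of that start, because the gene table places the gene's own start further upstream. Capitals mark the searched motifs, either TATAAA or an E2F-type site written as TTTGGCGC, TTTCCCGC, TTTGCCGC or TTTCGCGC, on both strands.
Apob, chr12:7977427-7977628, plus strand: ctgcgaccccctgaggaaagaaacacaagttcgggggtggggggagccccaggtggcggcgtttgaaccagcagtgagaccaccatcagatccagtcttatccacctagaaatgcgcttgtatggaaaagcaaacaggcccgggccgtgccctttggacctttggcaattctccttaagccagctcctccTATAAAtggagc
Vldlr, chr19:27216234-27216479, plus strand: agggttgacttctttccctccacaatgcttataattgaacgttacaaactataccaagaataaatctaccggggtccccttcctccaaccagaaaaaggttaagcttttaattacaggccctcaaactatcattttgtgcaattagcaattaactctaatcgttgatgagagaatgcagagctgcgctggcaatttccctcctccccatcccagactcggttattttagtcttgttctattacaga
Lrp1, chr10:127621149-127621398, minus strand: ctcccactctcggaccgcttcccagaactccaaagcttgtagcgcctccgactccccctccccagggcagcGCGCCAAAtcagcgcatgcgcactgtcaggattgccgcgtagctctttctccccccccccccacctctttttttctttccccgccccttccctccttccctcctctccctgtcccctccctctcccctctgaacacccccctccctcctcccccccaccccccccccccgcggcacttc
Apob holds TATAAA and no E2F-type letters, Lrp1 holds GCGCCAAA, the reverse complement of TTTGGCGC, 179 bases before the start of the promoter table, and Vldlr holds neither. The TATAAA of Apob lies 60 bases before that start. Over 32851 promoter windows of 250 bases, 12.4% hold TATAAA and 1.86% an E2F-type site. Of the 9 members with an entry, 4 (Apob, Apobec1, Apoa5 and Apoe) hold TATAAA in at least 1 window (Apoa5 in 2) and Lrp1 alone holds an E2F-type site. A match describes letters and not binding, and the absence of a match says nothing about a factor.

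Apob, the structural protein of the particle, was the one member that changed between 3aKO and wt. On its brighter probe set, 1455593_at, the wt arrays lay between 13.85 and 14.09 with a median of 13.92, and the 3aKO arrays between 12.79 and 13.31 with a median of 13.11 (log2 signal, normalization 1). No 3aKO array reached any wt array. The signal fell by 0.88 ± 0.05 (SE) on the log2 scale, a 1.83-fold difference (limma, n = 10 and 12, adjusted p = 9.2e-15), and the same arrays in normalization 2 gave -0.88 ± 0.09 (adjusted p = 1.1e-06). Of all 18193 genes 0.176% passed in this comparison and 0.011% had groups that did not overlap. Among the members 1 of 10 passed, with none higher (limma, 1 of 10 at an unadjusted p under 0.05), and their median change of -0.02 stood beside -0.01 for all genes.

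Apob was lower still in 3bKI. The 5 arrays, in the order of their replicate numbers, read 11.79, 12.75, 11.60, 12.10 and 11.87 on this probe set in normalization 2. The wt arrays read from 13.83 to 14.14 with a median of 13.98 there, and the 3aKO arrays from 12.80 to 13.32 with a median of 13.15. The 3 groups thus formed separate bands, with wt highest and 3bKI lowest. The signal fell by 1.97 ± 0.11 on the log2 scale against wt, a 3.92-fold difference (limma, adjusted p = 2.4e-13). Against 3aKO it fell by 1.09 ± 0.11, a 2.13-fold difference (limma, adjusted p = 1.4e-08). In these comparisons 29.2% and 34.2% of all genes passed, and 7.18% and 12.2% of all genes had groups that did not overlap. Within 3bKI the order of Apob was the reverse of that of the hybridization controls, which read 11.8, 11.2, 11.9, 11.4 and 11.6 in the same replicate order. With the level of these controls as a block (higher or lower, cut at the dimmest knock-in array), which sets 3bKI against wt replicates 1 and 2, the difference from wt was -2.10 (limma, adjusted p = 8.8e-09). With RNA integrity as a covariate the difference from 3aKO was -0.82 and did not pass (limma, adjusted p = 0.13).

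In 1KI the same probe set stood at the wt level. The 1KI arrays lay between 13.84 and 14.04 with a median of 13.96, inside the wt range but for the lowest array. The difference from wt was -0.01 ± 0.05 (95% interval -0.11 to 0.08, limma, adjusted p = 0.85), so a difference of the size seen in 3aKO lies outside the interval. With the control level as a block it was -0.13 (limma, adjusted p = 0.40). Wt replicates 1 and 2, the wt arrays at the higher control level, read 14.07 and 14.09, above every 1KI array. Against 3aKO the signal was higher by 0.86 ± 0.05 with no overlap (limma, adjusted p = 1.2e-14). Of all genes, 27.6% passed against wt and 31% against 3aKO, and 1.39% and 4.04% had groups that did not overlap.

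**Figure D1:**
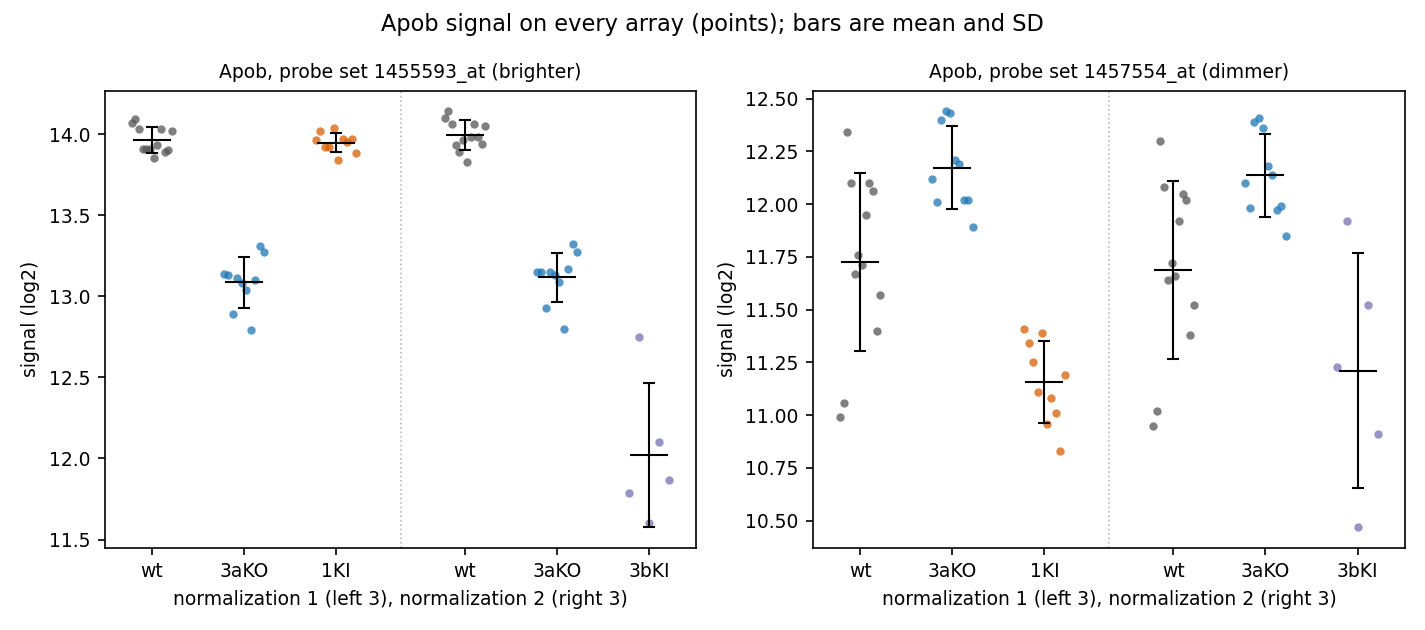
Log2 signal of the 2 Apob probe sets on every array (points) by genotype, with normalization 1 at the left and normalization 2 at the right of each panel; bars are mean and SD. On the brighter probe set 3aKO lies below wt and 3bKI below 3aKO without overlap, while 1KI lies at wt; on the dimmer one the order of the groups differs.

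The dimmer Apob probe set, 1457554_at, gave another picture. Its wt arrays lay between 10.99 and 12.34 with a median of 11.74, its 3aKO arrays between 11.89 and 12.44 with a median of 12.16, and its 1KI arrays between 10.83 and 11.41 with a median of 11.15. Every 3aKO array was above the wt mean, and every 1KI array was below every 3aKO array. The 3aKO difference from wt was 0.45 ± 0.12 and did not pass over all probe sets (limma, adjusted p = 0.10), of which 0.424% passed. In 1KI the signal fell by 0.57 ± 0.12 against wt (limma, adjusted p = 6.0e-04) and by 1.02 ± 0.13 against 3aKO (limma, adjusted p = 2.7e-07), where 29.2% and 32% of all probe sets passed. The 3bKI arrays read 11.23, 11.92, 10.47, 11.52 and 10.91, and the highest and lowest replicates were the same as on the brighter probe set. Their difference was -0.48 ± 0.19 from wt, which did not pass (limma, adjusted p = 0.055), and the signal fell by 0.93 ± 0.19 against 3aKO (limma, adjusted p = 3.8e-04), where 30.2% and 34.9% of all probe sets passed.

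The Apob probe sets were set against each other within each array, as the difference of the brighter minus the dimmer. Its mean was 2.24 ± 0.46 (SD) for the 12 wt arrays, 0.913 ± 0.308 for the 10 of 3aKO and 2.79 ± 0.18 for the 10 of 1KI. For the 5 arrays of 3bKI it was 0.812 ± 0.245 beside 2.31 ± 0.46 for wt in the same normalization. It differed from wt in 3aKO by -1.32 and in 1KI by 0.55 (permutation tests, 2-sided, adjusted p = 6.0e-04 and 0.011 over 60 such tests). It differed from wt in 3bKI by -1.49 (exact permutation test, 2-sided, adjusted p = 0.0032), while 3bKI and 3aKO differed by -0.17 (exact permutation test, adjusted p = 0.43). The files do not place the 2 probe sets on the Apob transcript, and why they disagree was not tested.

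The dimmer probe set also followed the hybridization controls among wt arrays. Wt replicates 1 and 2, at the higher control level, read 10.99 and 11.06, and the other 10 wt arrays read from 11.40 to 12.34. On the brighter probe set the same arrays read 14.07 and 14.09 against 13.85 to 14.03. With the control level as a block the dimmer probe set differed from wt by 0.13 in 1KI (limma, adjusted p = 0.70) and by 0.31 in 3aKO (limma, adjusted p = 0.26). The brighter one kept its change of -0.85 in 3aKO (limma, adjusted p = 6.9e-14).

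**Figure D2:**
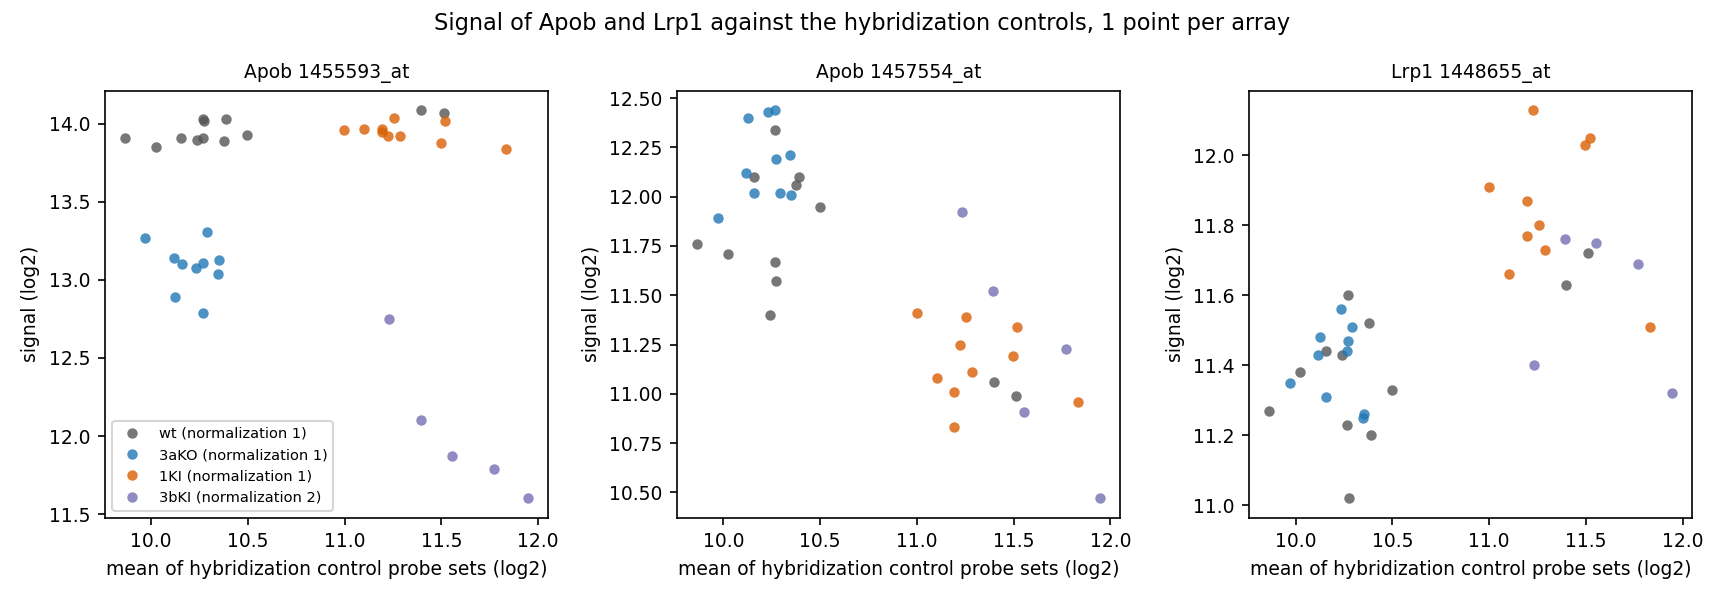
Log2 signal of both Apob probe sets and of the brighter Lrp1 probe set (vertical axes) against the mean log2 signal of the hybridization controls (horizontal axes), with 1 point per array coloured by genotype. The 2 wt arrays at the higher control level, 10.99 and 11.06 on the dimmer Apob probe set, lie among the 1KI arrays there and in the Lrp1 panel, at 11.72 and 11.63, within its range.

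Mttp, which transfers lipid onto apolipoprotein B, fell slightly in 3bKI. On 1419399_at the wt arrays read from 11.77 to 12.16 with a median of 11.94 in normalization 2, and the 3bKI arrays 11.64, 11.81, 11.75, 11.79 and 11.84. All 5 lay below the wt mean, and the groups overlapped. The signal fell by 0.20 ± 0.07 against wt (limma, adjusted p = 0.029) and differed by -0.05 ± 0.07 from 3aKO (adjusted p = 0.63). The call against wt was lost without 3bKI replicate 1 (-0.17, adjusted p = 0.10) or replicate 3 (-0.19, adjusted p = 0.058). On the other probe set, 1419400_at, the signal fell in 3bKI by 0.43 ± 0.08 against wt and by 0.38 ± 0.09 against 3aKO (limma, adjusted p = 1.9e-04 and 9.5e-04). Neither probe set passed in 3aKO or 1KI, with differences between -0.14 and 0.01.

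Apobec1, the deaminase that edits the Apob transcript, rose in both knock-ins. The wt arrays read from 7.63 to 8.42 with a median of 7.92, the 3aKO arrays from 7.62 to 8.61 with a median of 8.15, and the 1KI arrays from 8.16 to 9.20 with a median of 8.54 on 1451755_a_at. All 10 1KI arrays lay above the wt mean, although the groups overlapped. The rise in 1KI was 0.57 ± 0.12 against wt, a 1.49-fold difference (limma, adjusted p = 3.4e-04), and 0.40 ± 0.12 against 3aKO (limma, adjusted p = 0.011). The 3bKI arrays read 8.19, 7.95, 8.10, 8.37 and 8.49 beside a wt range of 7.46 to 8.32 in normalization 2. The signal rose by 0.39 ± 0.14 against wt (limma, adjusted p = 0.032) and differed by 0.21 ± 0.14 from 3aKO (adjusted p = 0.26). In 3aKO the difference from wt was 0.17 ± 0.12 (limma, adjusted p = 0.58). The 3bKI call was lost without wt replicate 6 or 9 or 3bKI replicate 1, 4 or 5, with values from 0.33 to 0.40. It was also lost with the control level as a block (0.64, adjusted p = 0.062) and with RNA integrity as a covariate (0.63, adjusted p = 0.22). The blocked value was 0.79 in 1KI against wt (adjusted p = 0.024) and 0.66 against 3aKO, where it no longer passed (adjusted p = 0.14). Among the arrays of the higher level alone the 1KI value of 0.79 did not pass either (adjusted p = 0.085).

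Of the exchangeable apolipoproteins, Apoa1, the main protein of high density lipoprotein, and Apoe, the ligand for remnant uptake, read near the top of the scale on every array and varied little. Apoe read from 14.71 to 14.85 in wt, 14.74 to 14.77 in 3aKO and 14.67 to 14.84 in 1KI, and 14.80, 14.79, 14.78, 14.82 and 14.85 in 3bKI, and passed in no comparison, with differences between -0.03 and 0.03. The highest value in the files is 15.06. The main Apoa1 probe set, 1419233_x_at, read 14.69, 14.75, 14.70, 14.71 and 14.76 in 3bKI against 14.75 to 14.86 in wt, and its difference of -0.08 ± 0.04 did not pass (limma, adjusted p = 0.077). The other 3 Apoa1 probe sets fell in 3bKI, by 0.12 to 0.14 against wt and by 0.10 to 0.12 against 3aKO (limma, adjusted p from 0.0063 to 0.046). None of the 4 passed in 3aKO or 1KI (limma), with differences between -0.03 and 0.04.

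Apoa5, which promotes lipolysis of circulating triglyceride, fell in 3bKI. Its probe set, 1417610_at, read 13.61, 13.87, 13.81, 13.74 and 13.66 there, 13.88 to 14.13 in wt and 13.85 to 14.07 in 3aKO. Every 3bKI array lay below every wt array, and 3bKI replicate 2 overlapped with 3aKO. The signal fell by 0.28 ± 0.05 against wt and by 0.22 ± 0.05 against 3aKO (limma, adjusted p = 5.1e-05 and 0.0011), the former a 1.22-fold difference. Neither 3aKO nor 1KI differed from wt past the threshold (-0.06 and -0.02, limma, adjusted p = 0.49 and 0.66). With the control level as a block the 3bKI difference from wt was -0.23 (adjusted p = 0.062) and that from 3aKO was -0.15 (adjusted p = 0.33), and with RNA integrity as a covariate they were -0.19 (adjusted p = 0.30) and -0.10 (adjusted p = 0.74).

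Apoa4, an apolipoprotein of intestine and liver that lies next to Apoa1, Apoc3 and Apoa5 on mouse chromosome 9, varied most among these. Its main probe set, 1436504_x_at, read from 10.87 to 12.77 in wt with a median of 12.06, from 11.51 to 12.43 in 3aKO with a median of 11.91, and from 11.72 to 12.90 in 1KI with a median of 12.43. The 3bKI arrays read 12.41, 12.67, 11.43, 13.38 and 13.37, so that replicates 4 and 5 were above every wt array and replicate 3 was in the lower part of the wt range. It rose in 3bKI by 0.72 ± 0.26 against 3aKO (limma, adjusted p = 0.034), while the difference of 0.62 ± 0.25 from wt did not pass (adjusted p = 0.070). The call against 3aKO was lost without 3aKO replicate 6 or 9 or 3bKI replicate 2, 4 or 5, with values between 0.54 and 0.71. In 1KI the differences were 0.34 ± 0.17 from wt (limma, adjusted p = 0.13) and 0.44 ± 0.17 from 3aKO (adjusted p = 0.052). The latter passed without any one of 3aKO replicates 1, 4, 5 and 8 or 1KI replicates 6, 7 and 10 (0.46 to 0.51), and the 3bKI difference from wt passed without wt replicate 3 (0.67) or 4 (0.68) or 3bKI replicate 3 (0.92). With RNA integrity as a covariate the 1KI difference from 3aKO passed at 0.44 (adjusted p = 0.042), and the 3bKI call against 3aKO was lost at 1.66 (adjusted p = 0.18). With the control level as a block that call was lost at 1.00 (adjusted p = 0.20). The other probe set, 1417761_at, rose in all 4 of these comparisons, by 0.51 ± 0.20 in 1KI against wt (limma, adjusted p = 0.048), by 0.68 ± 0.21 against 3aKO (adjusted p = 0.011), and in 3bKI by 1.05 ± 0.28 against wt (adjusted p = 0.0047) and by 1.22 ± 0.29 against 3aKO (adjusted p = 0.0014). The 4 neighbours on chromosome 9 did not share a direction in 3bKI, where Apoa5 fell, an Apoa4 probe set rose and Apoc3 did not pass.

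Apoc3, an inhibitor of lipoprotein lipase, read from 14.34 to 14.54 in wt, 14.33 to 14.48 in 3aKO and 14.43 to 14.60 in 1KI, and 14.54, 14.32, 14.48, 14.52 and 14.52 in 3bKI. The groups overlapped in each comparison. Its differences ranged from -0.01 to 0.08, with none past the threshold (limma, lowest adjusted p = 0.064 in 1KI against 3aKO).

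Vldlr, a receptor for triglyceride-rich particles that liver normally holds at low levels, fell in 1KI. The main probe set, 1434465_x_at, read from 6.41 to 7.77 in wt with a median of 7.59, from 6.53 to 8.21 in 3aKO with a median of 7.68, and from 5.30 to 7.10 in 1KI with a median of 6.32. Every 1KI array lay below the wt mean, and the ranges overlapped. The signal fell by 1.25 ± 0.22 against wt, a 2.38-fold difference, and by 1.42 ± 0.23 against 3aKO, a 2.68-fold difference (limma, adjusted p = 6.6e-05 and 1.5e-05). All 6 Vldlr probe sets fell in 1KI, by 0.41 to 1.43 against wt and by 0.47 to 1.43 against 3aKO (limma, highest adjusted p = 2.7e-04). With the control level as a block the changes of the main probe set were -1.50 and -1.71 (adjusted p = 0.028 and 0.044). Among the arrays of the higher level alone, which hold 2 wt arrays, the difference from wt was -1.50 and did not pass (adjusted p = 0.13). In 3aKO its difference from wt was 0.17 ± 0.22 (limma, adjusted p = 0.81).

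In 3bKI Vldlr was spread widely. Its 5 arrays read 7.95, 5.11, 7.46, 6.87 and 4.80 on the main probe set, with an SD of 1.41 beside 0.44 in wt. Replicates 2 and 5 lay below every wt array, replicate 1 above every wt array and the others within the wt range of 6.31 to 7.77. In the fit the signal fell by 0.97 ± 0.35 against wt and by 1.12 ± 0.36 against 3aKO (limma, adjusted p = 0.038 and 0.017). An exact permutation test of the gene alone gave p = 0.074 and 0.066 (2-sided, unadjusted). The call against wt was lost without 3bKI replicate 2 (-0.64) or 5 (-0.56), or without wt replicate 2, 5, 8 or 9 (-0.93 to -0.95), and that against 3aKO without 3bKI replicate 2 (-0.79) or 5 (-0.71). With the control level as a block the values were -1.20 and -1.40 and did not pass (adjusted p = 0.20 and 0.19). Of the other 5 probe sets, all fell by 0.39 to 1.03 against 3aKO and 4 fell by 0.35 to 1.03 against wt (limma), and 1451156_s_at did not pass against wt (-0.17 ± 0.13, adjusted p = 0.37). Replicates 2 and 5 gave the 2 lowest 3bKI values on 3 of the 5 (1417900_a_at, 1435893_at and 1442169_at).

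Lrp1, a large endocytic receptor for remnants, rose in 1KI. The brighter probe set, 1448655_at, read from 11.02 to 11.72 in wt with a median of 11.41, from 11.25 to 11.56 in 3aKO with a median of 11.44, and from 11.51 to 12.13 in 1KI with a median of 11.84. All 10 1KI arrays were above the wt mean. The rise was 0.45 ± 0.07 against wt and 0.44 ± 0.08 against 3aKO, both 1.36-fold (limma, adjusted p = 2.1e-05 and 3.6e-05). Wt replicates 1 and 2 read 11.72 and 11.63, above the other 10 wt arrays at 11.02 to 11.60, and with the control level as a block the differences were 0.17 and 0.11 and did not pass (adjusted p = 0.46 and 0.77). In 3bKI the arrays read 11.69, 11.40, 11.32, 11.76 and 11.75, and the differences of 0.22 ± 0.09 from wt and 0.21 ± 0.09 from 3aKO did not pass (limma, adjusted p = 0.069 and 0.079).

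The dimmer Lrp1 probe set, 1442849_at, rose more and in both knock-ins, from a low signal. Its wt mean was 5.77 in normalization 1, below the mean array median of 5.94 over the same wt arrays. Beside the brighter one, at percentile 96.7 of probe sets by mean signal in that normalization, it ranked at percentile 50.5. It read from 4.96 to 6.75 in wt with a median of 5.73, from 4.76 to 6.63 in 3aKO with a median of 6.01, and from 6.96 to 8.79 in 1KI with a median of 7.53, so every 1KI array was above every wt and 3aKO array. The 3bKI arrays read 7.25, 6.91, 6.62, 7.33 and 7.85, of which replicate 3 overlapped with wt, whose highest array was at 6.79 in normalization 2. The rise in 1KI was 1.83 ± 0.23 against wt and 1.69 ± 0.24 against 3aKO (limma, adjusted p = 4.2e-07 and 2.4e-06). In 3bKI it was 1.49 ± 0.26 and 1.31 ± 0.27 (limma, adjusted p = 5.3e-05 and 2.8e-04). Wt replicates 1 and 2 were at 5.51 and 5.21, within the range of the other wt arrays, and among arrays of the higher control level the rise was 2.24 in 1KI and 1.82 in 3bKI (limma, adjusted p = 0.011 and 0.012). With RNA integrity as a covariate the 3bKI difference from 3aKO was 2.05 and did not pass (adjusted p = 0.11). The change of the brighter minus that of the dimmer probe set was -1.38 in 1KI against wt (permutation test, adjusted p = 0.0021) and -1.27 in 3bKI against wt (exact permutation test, adjusted p = 0.0081).

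**Figure D3:**
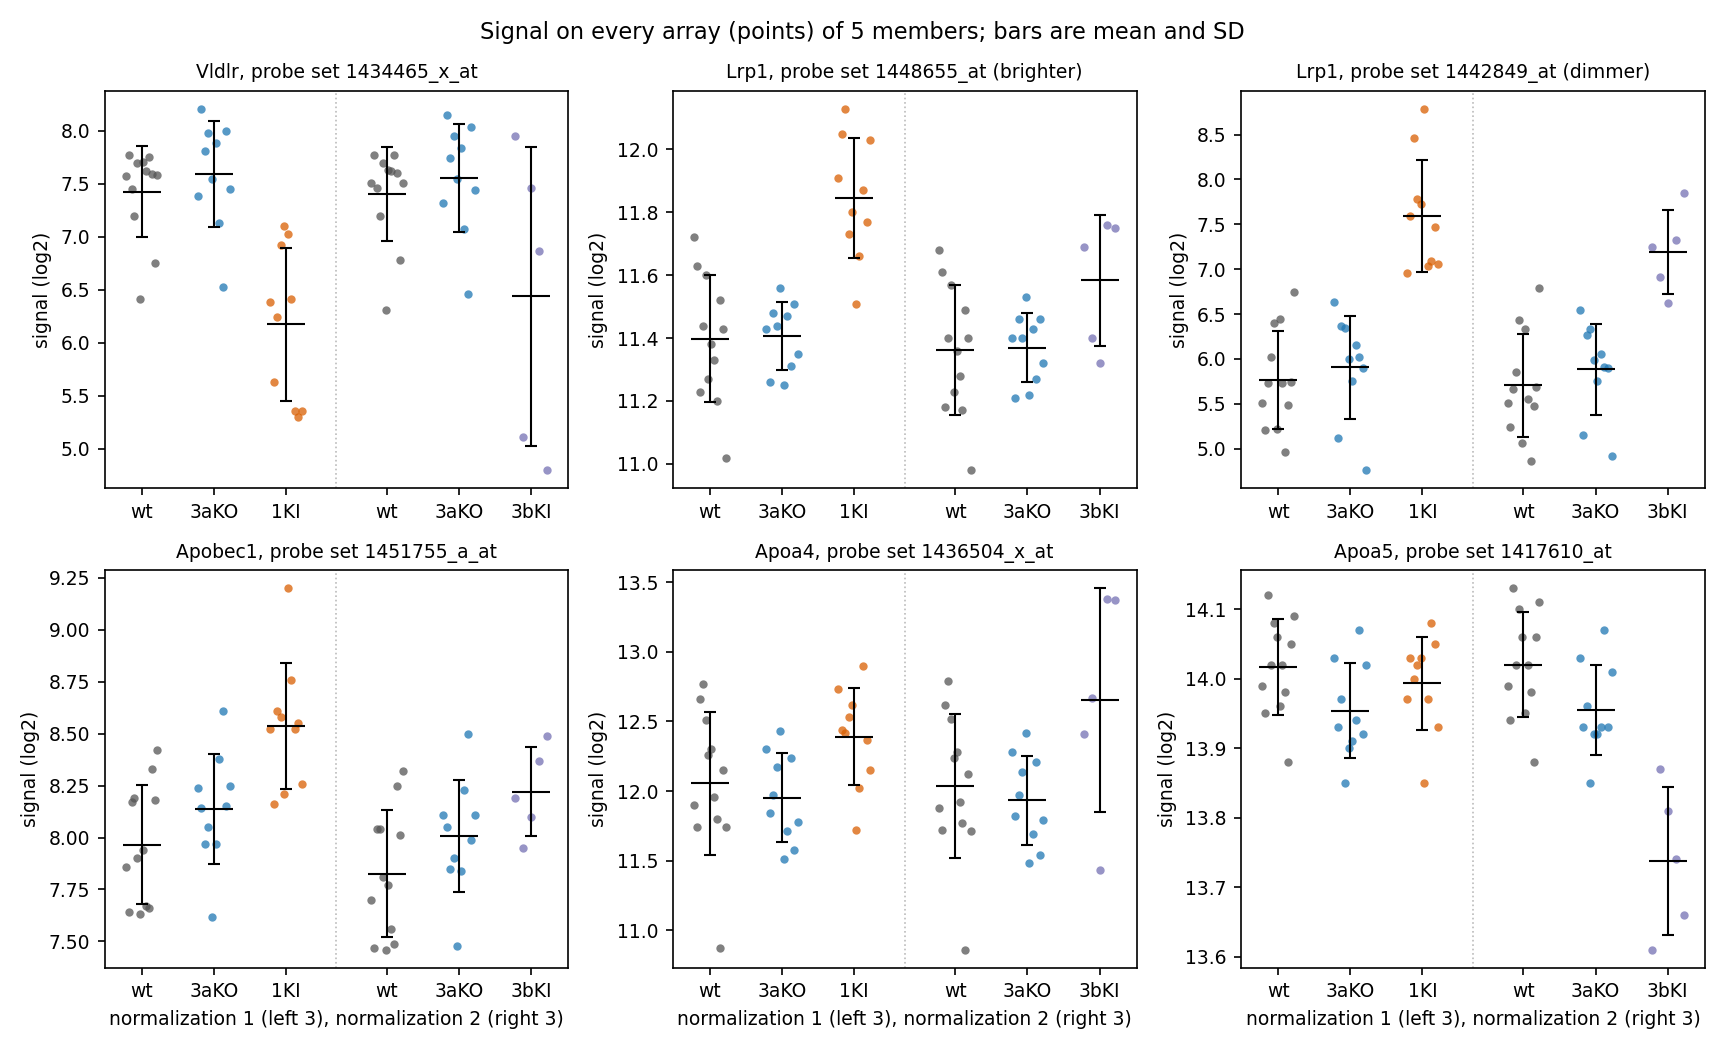
Log2 signal on every array (points) for 6 probe sets of 5 members by genotype, with normalization 1 at the left and normalization 2 at the right; bars are mean and SD. Vldlr is low in 1KI and splits in 3bKI, from 4.80 to 7.95, the dimmer Lrp1 probe set is high in both knock-ins, and Apoa5 is low in 3bKI.

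Counted over the 10 genes by their main probe sets, 2 rose and 1 fell in 1KI against wt (Lrp1, Apobec1 and Vldlr). Against 3aKO 3 rose and 1 fell in 1KI, with Apob added to the rises. In 3bKI 1 rose and 4 fell against wt (Apobec1, then Apob, Vldlr, Apoa5 and Mttp), and 1 rose and 3 fell against 3aKO (Apoa4, then Apob, Vldlr and Apoa5). These are 3, 4, 5 and 4 of 10 members, beside the 27.6%, 31%, 29.2% and 34.2% of all genes given above. Of these, Apob and Vldlr were chosen with their results known, and nothing is read from the counts. The median size of change was 0.25 for the members and 0.12 for all genes in 3bKI against wt, and 0.10 for both in 1KI against wt. Of the 22 probe sets, 0 rose and 1 fell in 3aKO (limma), 4 rose and 7 fell in 1KI against wt, and 3 rose and 12 fell in 3bKI against wt, with Vldlr and Apoa1 holding several each. Of all probe sets 0.424%, 29.2% and 30.2% passed in these comparisons. Probe sets of a gene are not independent, and nothing is read from these counts either. Blocking on the control level, 2 members still passed in 1KI against wt (Vldlr and Apobec1), 2 against 3aKO (Apob and Vldlr) and 1 in each comparison of 3bKI (Apob). The share of all genes that passed fell as well, to 4.3% and 2.29% in 1KI and to 8.7% and 6.77% in 3bKI, against wt and 3aKO in turn. With RNA integrity as a covariate 1 member passed in 3bKI against wt (Apob) and 0 of 10 against 3aKO (limma; 3 of 10 had an unadjusted p under 0.05), where 3.33% and 0.638% of all genes passed.

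**Figure D4:**
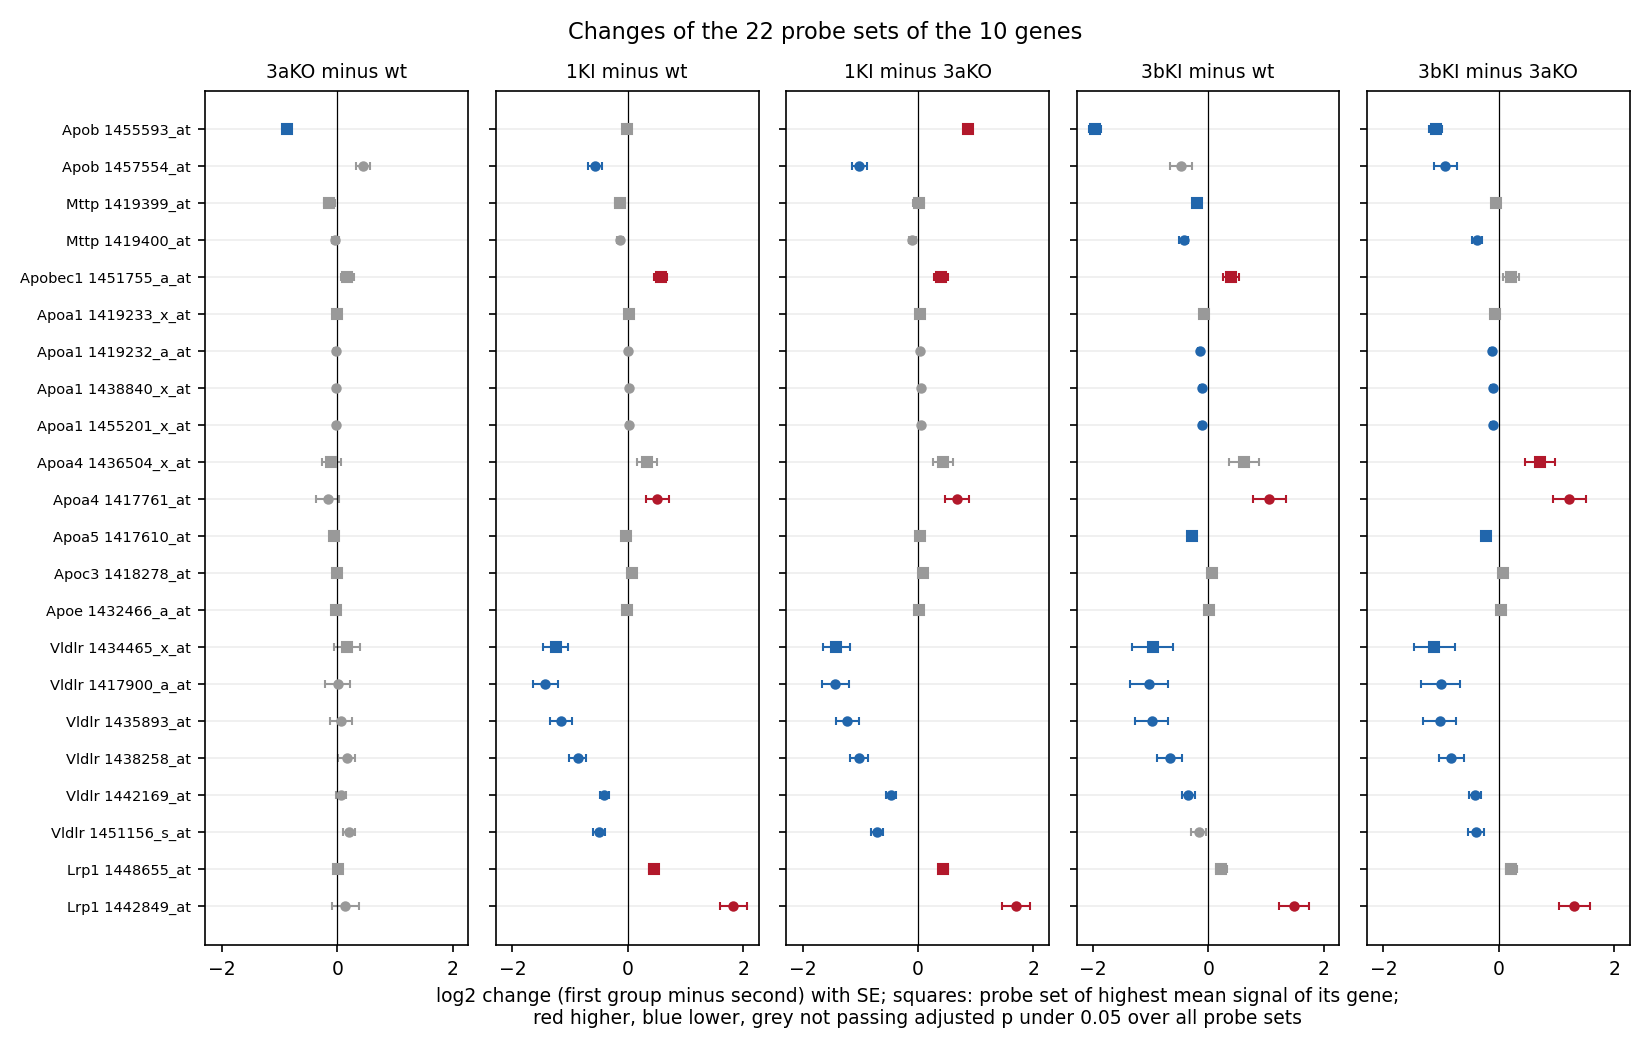
Log2 change with its SE of each of the 22 probe sets in the 5 comparisons (horizontal axes), with 1 row per probe set; squares are the probe sets of highest mean signal, and red, blue and grey mark higher, lower and not past an adjusted p of 0.05. The Apob rows differ between the probe sets in every comparison but 3bKI against 3aKO, and the 6 Vldlr rows lie on the lower side in every knock-in comparison.

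Within groups, arrays high in one member were not generally high in the others. Over deviations from the group means, the pair with the closest relation in normalization 1 was Apoa4 with Apoa5 (r = 0.59 over 32 arrays), which gave 0.22 over the 27 arrays of normalization 2, of which 22 are shared. Some pairs were related in both normalizations, such as Mttp and Apoa5 (0.53 and 0.42) and Apoa4 and Apoc3 (0.49 and 0.45). Mttp and Vldlr gave -0.50 and -0.38, and Apob and Mttp 0.31 and 0.25. The array that stood apart in RNA integrity, 1KI replicate 6, is among the 32 arrays and not among the 27, and its part in these values was not tested. Genes most like Apob in the first were Raly (0.73) and Mpst (0.57), an enzyme of cysteine breakdown, which gave -0.26 and 0.68 in the second. Those most like Vldlr were Pfn2 (0.64) and Apoa2 (0.64), which gave 0.43 and 0.22. Arrays of one group also differed in the level of the hybridization controls and in RNA integrity. The part of these measures in the correlations was not tested, and the values are descriptions.

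Other genes of the pathway were counted in 9 lists, of which 141 of 151 genes were tested. In 3aKO only Ppargc1a, a coactivator of fasting metabolism, passed, higher by 1.12 ± 0.16 (limma, adjusted p = 3.0e-04). In 1KI 32 rose and 17 fell against wt, and in 3bKI 28 rose and 32 fell against wt, with medians of 0.00 and -0.01 beside -0.05 and 0.00 for all genes. These are 34.8% and 42.6% of the 141 genes, beside 27.6% and 29.2% of all genes, and the counts of single lists below are to be read against those background shares. Blocking on the control level, 7 of these genes passed in 1KI against wt, all higher, so the falls in 1KI named below were not called there. In 3bKI 17 passed against wt, 8 higher and 9 lower. These are 4.96% and 12.1% of the 141 genes, beside 4.3% and 8.7% of all genes. With RNA integrity as a covariate 11 passed in 3bKI against wt, 7.8% beside 3.33% of all genes.

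Among partners of Apob editing, A1cf, the factor that docks Apobec1 to the transcript, fell by 0.71 ± 0.12 in 1KI and by 0.60 ± 0.12 in 3bKI against wt (limma, adjusted p = 4.2e-05 and 3.8e-04). Of the 7 genes of that list, Apobec1 apart, 2 rose and 1 fell in 1KI and 1 rose and 3 fell in 3bKI against wt. Syncrip, an RNA-binding protein of the same complex, fell by 0.69 ± 0.09 in 3bKI (limma, adjusted p = 1.2e-06). In particle assembly and secretion, 4 of 20 genes rose and 2 fell in 1KI, and 3 rose and 5 fell in 3bKI. There Sec24a and Sec23a, coat proteins of vesicles leaving the endoplasmic reticulum, fell by 0.66 ± 0.08 and 0.37 ± 0.08 (limma, adjusted p = 3.1e-07 and 4.3e-04), and Cideb, which promotes lipidation of the particle, rose by 0.31 ± 0.07 (limma, adjusted p = 5.6e-04).

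Of lipases and their regulators, 3 of 9 rose in 1KI with none lower (limma), and 4 rose and 1 fell in 3bKI. Pltp, which moves phospholipid between particles, rose by 1.40 ± 0.16 in 1KI and by 0.83 ± 0.16 in 3bKI (limma, adjusted p = 1.1e-07 and 1.9e-04). Gpihbp1, the capillary anchor of lipoprotein lipase, rose by 0.80 ± 0.11 in 3bKI (limma, adjusted p = 4.1e-06). There 3 of 10 sinusoidal endothelial markers rose against wt and 6 of 10 against 3aKO (limma). Of all genes, 13.4% and 16.5% passed as higher in these comparisons. The mean of the 10 markers ranged from 9.00 to 9.36 over the 3bKI arrays, 8.78 to 9.25 over wt and 8.31 to 9.25 over 3aKO. The part of the endothelial markers in the Gpihbp1 rise was not tested. Among 14 other receptors and adaptors 3 rose in each knock-in, among them Lrp5, a coreceptor of Wnt signalling, by 0.47 ± 0.09 in 1KI and 0.70 ± 0.10 in 3bKI (limma, adjusted p = 9.5e-05 and 2.6e-06), while Lrp6, of the same function, fell by 0.76 ± 0.07 in 3bKI (limma, adjusted p = 3.3e-09). Of the 27 transcription factors tested, 7 rose and 2 fell in 1KI and 6 rose and 5 fell in 3bKI, with Mlxipl, a glucose-responsive factor of lipid synthesis, higher by 1.32 ± 0.13 and 1.03 ± 0.15 (limma, adjusted p = 3.1e-09 and 4.0e-06).

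**Figure D5:**
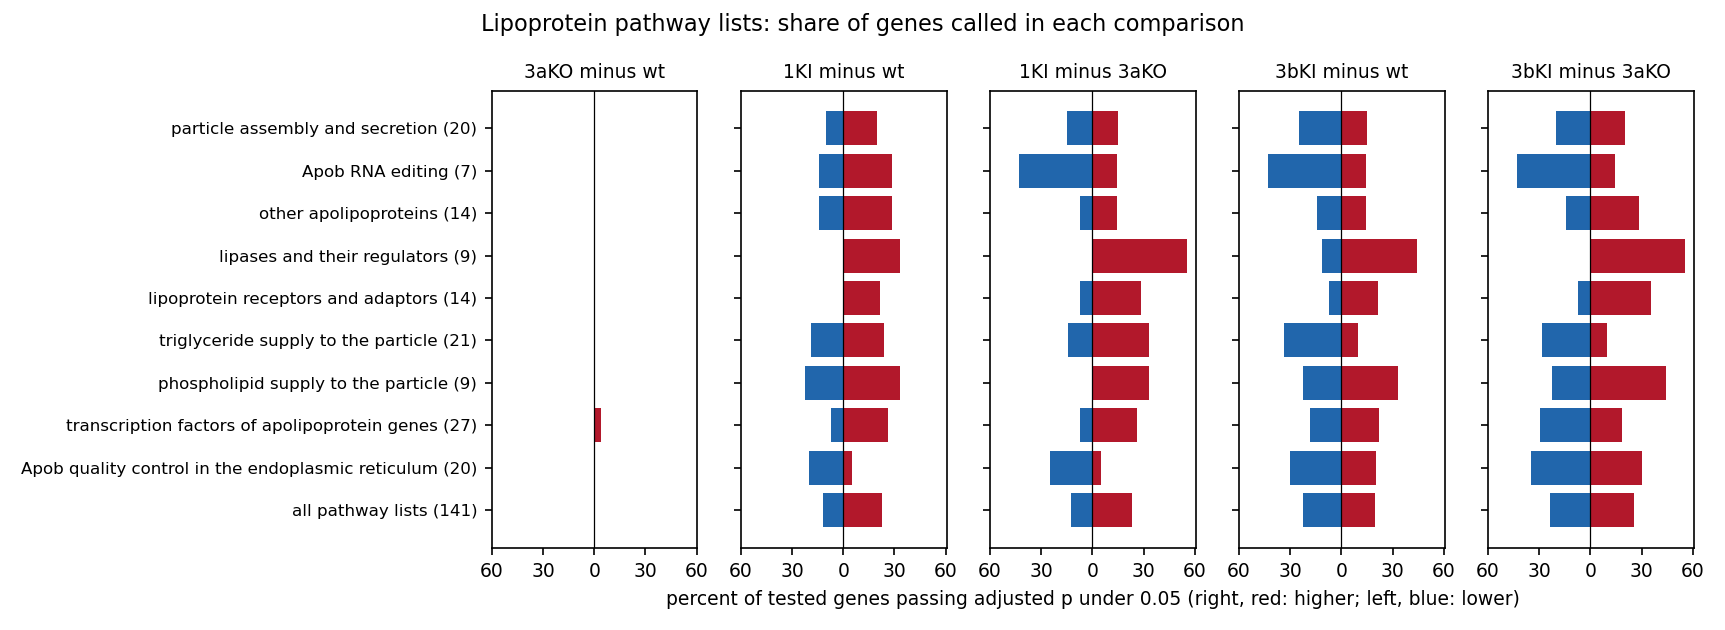
Percent of tested genes of each pathway list that passed an adjusted p of 0.05 as higher (red, right) or lower (blue, left) in each comparison; the number of genes tested stands beside each list name. Both directions are present in most lists of the knock-in comparisons, and the comparison of 3aKO with wt holds 1 called gene of 141.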

How the data were processed

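The deposited values are log2 expression values that the authors normalized across arrays in 2 sets. The normalization method is not stated in the labels or headers, and base 2 was inferred from the range of 2.13 to 15.06. Total RNA of liver was extracted with Trizol and labelled as biotin cRNA, per the labels' protocols. The 59 columns hold 37 arrays. Of the probe sets, 932 name several genes and 9160 no gene, and neither kind was used. Linear models were fitted with limma 3.58.1 (lmFit, eBayes; R 4.3.3) over all arrays of a normalization, with no filter on low signal. P-values were adjusted by Benjamini-Hochberg over 18193 genes, or over 34945 probe sets for probe sets other than the main one, at 0.05. Permutation tests used scipy 1.17.1 with 100000 resamples, or were exact where a group held under 10 arrays. Arrays whose hybridization controls were at least as bright as on the dimmest knock-in array formed the higher level, and the others the lower. The fits were tested on simulated data. Genes named from the 9 lists are among the 2 largest called changes of their list in each direction of a comparison, and not all of those are named. The members and lists were chosen with earlier results of these data known, so the changes of Apob and Vldlr are no independent support. Promoter sequences are from RefSeq. The number of arrays limits the precision.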

Additional observations from a re-analysis of the deposited data

Results flagged for a closer look

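The values of members on 2 arrays lay far from the other arrays of their group, by the share of the group's range that separated them from the nearest array. There were 4 such values. Chance flags about 1 in 20 groups, and 66 groups were examined, each of them 1 of the 22 probe sets in 3aKO, 1KI or 3bKI. The wt arrays were not examined in this way. Of these values 3 belong to 1KI replicate 6, the array with a 3' minus 5' difference of 1.75. It read 10.77 on the Apoa4 probe set 1417761_at, where the other 1KI arrays read 11.71 to 12.65. It read 10.92 on the Mttp probe set 1419399_at beside 11.74 to 12.17, and 14.67 for Apoe beside 14.76 to 14.84. Without this array Apoa4 (1436504_x_at) was higher in 1KI than in 3aKO by 0.51 (limma, adjusted p = 0.021). The fourth value was Apoc3 in 3bKI replicate 2, at 14.32 beside 14.48 to 14.54. The part of RNA integrity in these values was not tested.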

How the results depend on the processing

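With all probe sets of a gene averaged, Apob differed by -0.21 in 3aKO and by -0.29 in 1KI against wt, the first not passing and the second passing, and by -0.0775 in 1KI against 3aKO, the opposite sign. That averaging left 0 members called in 3aKO (limma; 1 of 10 at an unadjusted p under 0.05), 8 in 3bKI against wt and 7 against 3aKO. Of all genes 0.137%, 27.3% and 31.7% passed in these fits. With RNA integrity as a covariate, Apob in 3bKI against 3aKO was -0.82 and did not pass. With it 1 member was called in 3bKI against wt and 0 against 3aKO (limma; 3 of 10 at an unadjusted p under 0.05), where 3.33% and 0.638% of all genes passed. Blocking on the level of the hybridization controls left 2 members called in 1KI against 3aKO and 1 in each 3bKI comparison, beside 2.29%, 8.7% and 6.77% of all genes. With the sex index added these counts were 2, 2 (3bKI against wt) and 1, beside 2.15%, 8.15% and 6.95% of all genes. Among arrays of the higher level 0 were called in 1KI (limma; 3 of 10 at an unadjusted p under 0.05) and 1 in 3bKI against wt. Only 0.956% and 0.731% of all genes passed there. The causes were not tested. Genes above the median signal gave 8 in 3bKI against wt, where 50.1% of those genes passed. Leaving out single arrays gave 3 to 6 members in 3bKI against wt (3 without wt replicate 9 or 3bKI replicate 1 or 5) and 2 to 5 against 3aKO (2 without 3bKI replicate 5). Of all genes 26.7% to 29.6% and 31% to 34.7% passed in these fits. Apob then ranged from -0.90 to -0.84 (3aKO against wt), 0.83 to 0.89 (1KI against 3aKO), -2.15 to -1.87 and -1.28 to -0.99 (3bKI against wt and 3aKO). The replicate block gave 2 members in 3bKI against wt and 1 against 3aKO, with Apob at -1.08 in the latter and -0.88 in 3aKO against wt. Of all genes 10.8% and 22.1% passed in these 3bKI comparisons under the block. Under it Apoa4 passed in 1KI against 3aKO (0.44, adjusted p = 2.6e-04) and no longer in 3bKI against 3aKO (0.53, adjusted p = 0.14). Not every same-numbered pair correlated above 0.1 in any comparison, with 6 of 10 in 3aKO and wt, 4 of 10 in 1KI and wt, 7 of 10 in 1KI and 3aKO (median 0.24, own number best for 5), 2 of 5 in 3bKI and wt and 1 of 5 in 3bKI and 3aKO, so the numbers were not taken as pairs. Both knock-in comparisons within a control level rest on 2 wt arrays.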

Other observations

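Genes that supply lipid to the particle also changed in the knock-ins. The choline kinases Chka and Chkb, at the entry of phosphatidylcholine synthesis, rose by 1.01 ± 0.13 and 0.75 ± 0.08 in 1KI and by 1.58 ± 0.21 and 0.83 ± 0.09 in 3bKI against wt (limma, highest adjusted p = 1.8e-06). Pcyt1a, the next enzyme, fell by 0.34 ± 0.12 and 0.62 ± 0.07 (limma, adjusted p = 0.037 and 8.9e-08). Of the 21 genes of triglyceride supply, 5 rose and 4 fell in 1KI, and 2 rose and 7 fell in 3bKI. Ces1g, a carboxylesterase of liver, fell by 0.77 ± 0.11 in 1KI and by 0.77 ± 0.18 in 3bKI (limma, adjusted p = 1.7e-06 and 0.0018), and Lpin1, a phosphatidate phosphatase, rose by 1.29 ± 0.24 in 1KI (limma, adjusted p = 1.3e-04).

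Of the 20 genes tested for Apob quality control in the endoplasmic reticulum, 1 rose and 4 fell in 1KI and 4 rose and 6 fell in 3bKI. Syvn1, a ubiquitin ligase of that compartment, rose by 1.06 ± 0.16 and 1.03 ± 0.24 (limma, adjusted p = 5.3e-06 and 0.0013), and Hyou1, a chaperone, rose by 0.75 ± 0.14 in 3bKI (limma, adjusted p = 1.4e-04). Pdia3 and Pdia4 fell by 0.40 ± 0.12 and 0.35 ± 0.12 in 1KI (limma, adjusted p = 0.011 and 0.033). Dnajb1 and Hsp90aa1 fell by 0.76 ± 0.23 and 0.455 ± 0.135 in 3bKI (limma, adjusted p = 0.012 and 0.011). Among 14 other apolipoproteins, 4 rose and 2 fell in 1KI and 2 rose and 2 fell in 3bKI against wt (limma). Saa1 rose by 1.11 ± 0.36 in 1KI and by 1.19 ± 0.33 in 3bKI (limma, adjusted p = 0.020 and 0.0068). Apom, which carries sphingosine phosphate, fell by 0.45 ± 0.13 in 1KI, and Apoc2, the activator of lipoprotein lipase, rose by 0.37 ± 0.07 in 3bKI (limma, adjusted p = 0.0073 and 9.3e-05).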
